A study of Mus musculus with 72 samples.

Results

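The liver mRNAs of 5 insulin-like growth factor binding proteins, Igfbp1, Igfbp2, Igfbp3, Igfbp4 and Igfbp7, are described here across strains, sexes and isoleucine contents of a Western diet. The members were chosen by name, as the rows of the count table whose Ensembl identifiers carry these symbols, with no threshold on a measured value. Earlier results of these data were known at that time, so counts of members that passed are descriptions only. The members are 5 of the 50307 genes used, and 5 of the 14954 that held enough counts to be tested. Insulin-like growth factors (IGFs) are insulin-related hormones that act through the IGF1 receptor, and most circulating IGF travels bound to a binding protein that prolongs its life and limits its access to receptors. The liver makes most of the circulating IGF1 under growth hormone, and much of the circulating binding protein. IGFBP1 is a product of hepatocytes that insulin represses and fasting raises, IGFBP2 is an abundant carrier that is also higher when insulin is low, and IGFBP3 is the main carrier in blood, in a complex with the acid-labile subunit encoded by Igfals. IGFBP4 restrains IGF action until proteases cleave it, and IGFBP7 is a more distant relative with weak IGF binding that is secreted by vessel and stromal cells.

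The livers came from C57BL/6J (B6; the strain field of the labels spells it C56BL/6J) and DBA/2J (DBA) mice, male and female, fed a Western diet with control, low or high isoleucine, an essential branched-chain amino acid. Each of the 12 combinations of strain, sex and diet has 6 libraries, 72 in all, from mice with a labelled age of 18 weeks that had been on the diet for 12 weeks and fasted for 16 h. The age at the start of the diet is 6 weeks in the design text and 18 weeks in the treatment text. All groups, controls included, ate a Western diet and were fasted, so neither the fed state nor an ordinary diet was measured, and the labels do not state that libraries came from separate animals. Library totals ran from 12958959 to 51125370 counts, with a median of 24128736. Levels are given as CPM, counts scaled to the size of the library, and hepatocyte markers summed to between 69400 and 154000 CPM in single libraries. Libraries labelled male held 15.7 to 50.4 CPM of the Y-linked Ddx3y, and female libraries held 0 apart from B6 female control library 4 at 0.568 CPM. That library and B6 male control library 1 also stood apart in Igfbp1, and many of the diet results that rest on them are given with and without them.

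Igfbp1 lies on chromosome 11 from 7197782 to 7202546 on the plus strand of GRCm38, and Igfbp3 lies beside it from 7206086 to 7213923 on the minus strand, the ends of the genes facing each other across 3539 bases. Igfbp4 is on chromosome 11 from 99041244 to 99054392 (plus), Igfbp2 on chromosome 1 from 72824503 to 72852474 (plus), and Igfbp7 on chromosome 5 from 77349240 to 77408041 (minus). Igfbp2 is followed by Igfbp5, on the other strand, after 5457 bases. The sequences upstream of Igfbp1 and Igfbp2 are shown because these 2 members moved together with diet. They come from RefSeq on GRCm38.p6, read 5′ to 3′ on the plus strand, chr11:7197537-7197781 for Igfbp1 and chr1:72824230-72824479 for Igfbp2, and end before the RefSeq start of transcription. For Igfbp2 that start lies 5′ of the GENCODE start given above, with 23 bases between the printed stretch and the latter. Capitals mark matches, on either strand, to CAAAACAA, the core of the insulin response element bound by FOXO1, to GTAAACA, the forkhead core, or to GTTAAT, a half-site of HNF1.

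Igfbp1: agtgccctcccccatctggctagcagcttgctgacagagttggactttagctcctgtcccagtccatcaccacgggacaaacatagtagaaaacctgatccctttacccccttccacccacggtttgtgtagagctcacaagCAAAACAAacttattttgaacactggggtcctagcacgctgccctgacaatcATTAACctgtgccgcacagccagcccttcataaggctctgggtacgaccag
Igfbp2: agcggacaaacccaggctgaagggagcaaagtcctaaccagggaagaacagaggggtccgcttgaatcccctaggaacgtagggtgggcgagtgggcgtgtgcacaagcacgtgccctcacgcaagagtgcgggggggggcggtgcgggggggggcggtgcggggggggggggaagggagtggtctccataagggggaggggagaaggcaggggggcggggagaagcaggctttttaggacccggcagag

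The Igfbp1 stretch of 245 bases ends directly before the GENCODE start at 7197782, which lies 5′ of the RefSeq start. It held 1 match to CAAAACAA on the plus strand, 103 to 96 bases before the GENCODE start. It also held 1 match to GTTAAT on the minus strand, 51 to 46 bases before that start, and these did not overlap. Of the 32851 promoters in the RefSeq table, 2.21% held CAAAACAA, 3.17% held GTAAACA and 6.43% held GTTAAT in the 250 bases before the RefSeq start. The same search found 0 matches upstream of Igfbp2, Igfbp3, Igfbp4 and Igfbp7. G and C made up 52.7% of the Igfbp1 stretch, near the median of 52.4% over all promoters, and 67.2% (Igfbp2) to 74.0% (Igfbp7) of the others.

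Per kilobase of exon, the level of Igfbp2 was the highest of the members, with a median over the 12 group means of 552 CPM per kilobase. Igfbp4 followed at 285, then Igfbp7 at 40.6, Igfbp1 at 31.6 and Igfbp3 at 7.29 CPM per kilobase. Igf1, the ligand, stood at 59.7 CPM per kilobase on the same scale. Igfbp1 was the most variable member between groups: its highest group mean, in B6 males on low isoleucine, was 52.6 times its lowest, in DBA control males, against 1.66 to 2.58 times for the other members. It was also the most variable within groups, with a biological coefficient of variation of 0.70 (Igfbp2 0.36, Igfbp3 0.23, Igfbp7 0.15, Igfbp4 0.13), against a median of 0.185 over all genes tested. When the 12 groups were ordered by mean level, the range of every group overlapped that of the next lower group for all 5 members, so no neighbouring groups were separated. Neighbours in such an order have the closest means. Groups further apart could be separate, as those of DBA males on control and low isoleucine were for Igfbp1.

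**Figure D1:**
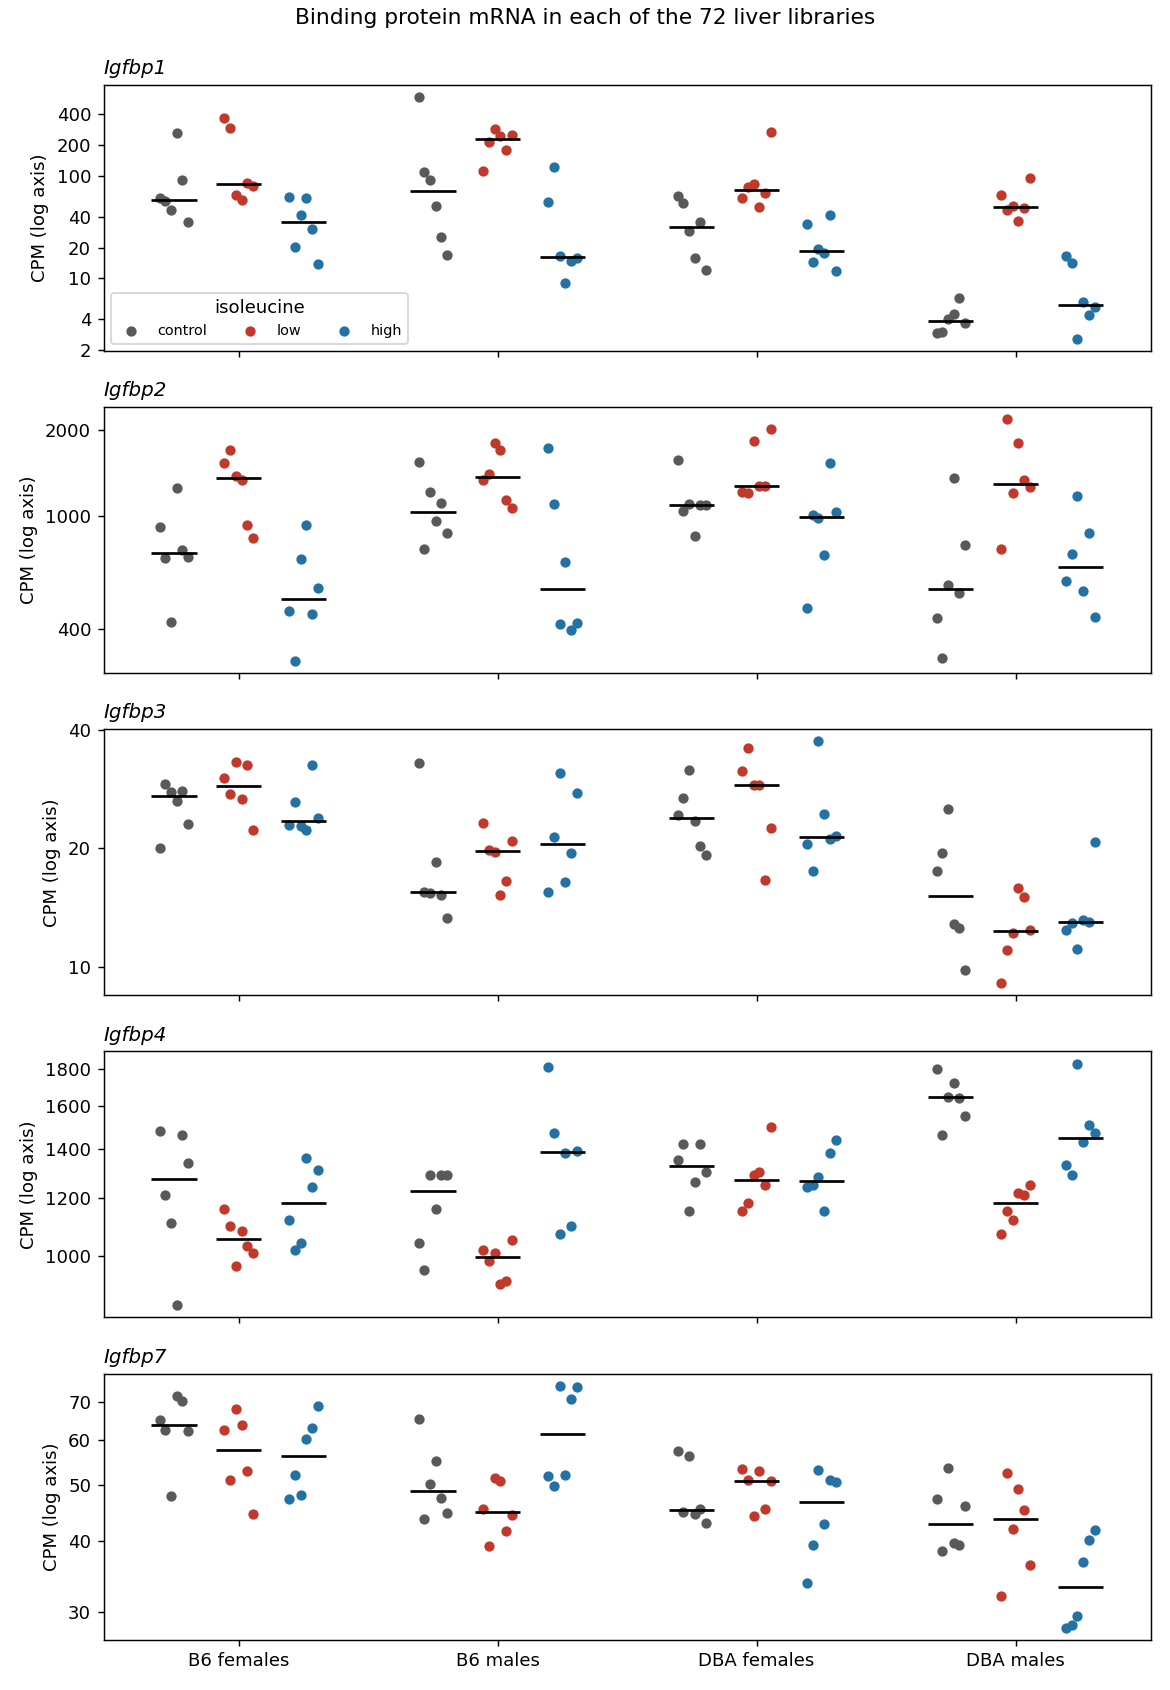
Level of each binding protein mRNA in CPM on a log axis, by strain and sex (x axis) and diet (colour). Each point is 1 library and each black line the median of 6 libraries; Igfbp1 in DBA males lies at 2.94 to 6.47 CPM on control and at 36.7 to 95.4 CPM on low isoleucine.

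Low isoleucine was first compared with control as the mean of the differences in the 4 classes of strain and sex. Igfbp1 and Igfbp2 rose and Igfbp4 fell, while Igfbp3 and Igfbp7 did not pass the test. Thus 3 of 5 members passed, in a comparison in which 37.8% of all genes tested did. The binding protein genes Igfbp5 and Igfbp6, which are not among the members, were also tested and did not pass. Adjusted p-values throughout are from edgeR's quasi-likelihood test with Benjamini-Hochberg adjustment over all genes, with the limit set at 0.05, and each log2 difference carries its standard error (SE). Each p-value sets a difference against the variation among single libraries, which can include technical differences. Titles put the libraries in 36 pairs that share a number, with a correlation within pairs of 0.24 over all genes and 0.52 for Igfbp1. If pairs are not separate animals, the p-values may be too small. With pairs summed, 4250 genes passed this comparison instead of 5647, and Igfbp1, Igfbp2 and Igfbp4 still passed. Igfbp1 rose by 1.66 ± 0.31 on the log2 scale, or 3.17-fold (adjusted p = 2.2e-05), and 19 of 24 low isoleucine libraries lay above the mean of the controls of their class. Igfbp2 rose by 0.64 ± 0.15, or 1.56-fold (adjusted p = 0.00054), with 23 of 24 libraries above that mean. Igfbp4 fell by 0.25 ± 0.05 (log2), to 0.839 of control (adjusted p = 5.3e-05), with 23 of 24 libraries below it. The difference of Igfbp3 was 0.0035 ± 0.10 (95% interval -0.19 to 0.19) and that of Igfbp7 -0.08 ± 0.06 (-0.20 to 0.04). In whole liver, fewer cells of a type and less RNA per cell cannot be told apart. Without the 2 control libraries that stood apart, the log2 difference of Igfbp1 was 2.17 ± 0.28, that of Igfbp2 0.72 ± 0.15 and that of Igfbp4 -0.28 ± 0.05.

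The rise of Igfbp1 was clearest in DBA males. In DBA control males Igfbp1 lay between 2.94 and 6.47 CPM (median 3.84), and on low isoleucine between 36.7 and 95.4 CPM (median 49.6). All 6 low libraries thus lay above all 6 controls, and the log2 difference was 3.80 ± 0.70 (adjusted p = 5.1e-05). Igfbp2 in DBA males ran from 317 to 1360 CPM (median 553) on control and from 766 to 2190 (median 1300) on low isoleucine, ranges that overlapped, with a log2 difference of 1.09 ± 0.31 (adjusted p = 0.0077). Igfbp4 ran from 1460 to 1800 CPM (median 1640) on control and from 1070 to 1250 (median 1180) on low isoleucine, ranges that did not overlap, with a log2 difference of -0.49 ± 0.10 (adjusted p = 0.00032). In this class 3 of 5 members and 17.7% of all genes passed. The DBA control males were the group with the lowest mean Igfbp1 and the highest mean Igfbp4; on low isoleucine their Igfbp1 lay within the span of the control libraries of the other 3 classes, 12.0 to 591 CPM.

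In the other 3 classes no member passed the test of low isoleucine against control in edgeR or in DESeq2, an alternative count test. At an unadjusted p under 0.05, 2 members did so in B6 females, where 32.8% of all genes did, 1 in B6 males (18.9% of genes) and 1 in DBA females (25.5%). The share of all genes that passed in edgeR was 20.8% in B6 females, 11.8% in DBA females and 5% in B6 males. In DBA females Igfbp1 ran from 12.0 to 64.4 CPM (median 32.1) on control and from 49.7 to 267 (median 73.2) on low isoleucine, with a log2 difference of 1.53 ± 0.61 (adjusted p = 0.096). Of the 6 low libraries, 4 lay above every control. In B6 males Igfbp1 ran from 16.9 to 591 CPM (median 71.4) on control and from 112 to 290 (median 231) on low isoleucine. The highest control, library 1, stood at 591 CPM and the next at 110, so that 5 controls lay below every low isoleucine library. With that library the log2 difference was 0.55 ± 0.60 (adjusted p = 0.68), and without it 1.89 ± 0.59 (adjusted p = 0.042). In B6 females Igfbp1 ran from 35.2 to 266 CPM (median 58.7) on control and from 58.6 to 370 (median 82.8) on low isoleucine, and the highest control, library 4, was followed by a control at 91.1 CPM. The log2 difference was 0.78 ± 0.60 (adjusted p = 0.39), and 1.46 ± 0.56 (adjusted p = 0.046) when that library and B6 male control library 1 were both left out. With both left out the adjusted p of Igfbp1 in DBA females was 0.045, though neither library is of that class. All libraries share an estimate of the spread, and the filter, scaling and adjustment were also redone. Which of these moved the value was not tested.

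Those 2 control libraries stood apart in more than Igfbp1. B6 male control library 1 held 1550 CPM of Igfbp2, against 767 to 1210 in the other 5 controls, and 103 CPM of the leptin receptor mRNA Lepr, against 8.65 to 32.7. Its Igfbp4, at 1040 CPM, lay within the 958 to 1290 of those controls. Lepr and Igfbp2 correlated with Igfbp1 over the 72 libraries (0.85 and 0.68 with class means subtracted). High values of both are therefore not independent of the high Igfbp1 by which the 2 libraries were picked. B6 female control library 4 held 1250 CPM of Igfbp2, against 424 to 917, 856 CPM of Igfbp4, against 1110 to 1480, and 73.2 CPM of Lepr, against 14.2 to 38.9. Their totals, 22171025 and 27225557 counts, lay within the range of the other controls of their groups. Without B6 female control library 4, Igfbp2 (log2 difference 0.87 ± 0.32, adjusted p = 0.037, against 0.70 ± 0.30 and 0.094 with it) and Igfbp4 (-0.32 ± 0.10, adjusted p = 0.012, against -0.23 ± 0.10 and 0.093) passed in B6 females. Several of these values lay in the range of the low isoleucine libraries of the same class. In B6 males these held 66.7 to 155 CPM of Lepr, 1070 to 1800 of Igfbp2 and 112 to 290 of Igfbp1, which library 1 exceeded. In B6 females they held 55.9 to 138 CPM of Lepr, 839 to 1710 of Igfbp2, 58.6 to 370 of Igfbp1 and 968 to 1160 of Igfbp4, which library 4 lay below. Whether the 2 libraries were exchanged or mixed with others was not tested, and the B6 control values are to be read with that limit.

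**Figure D2:**
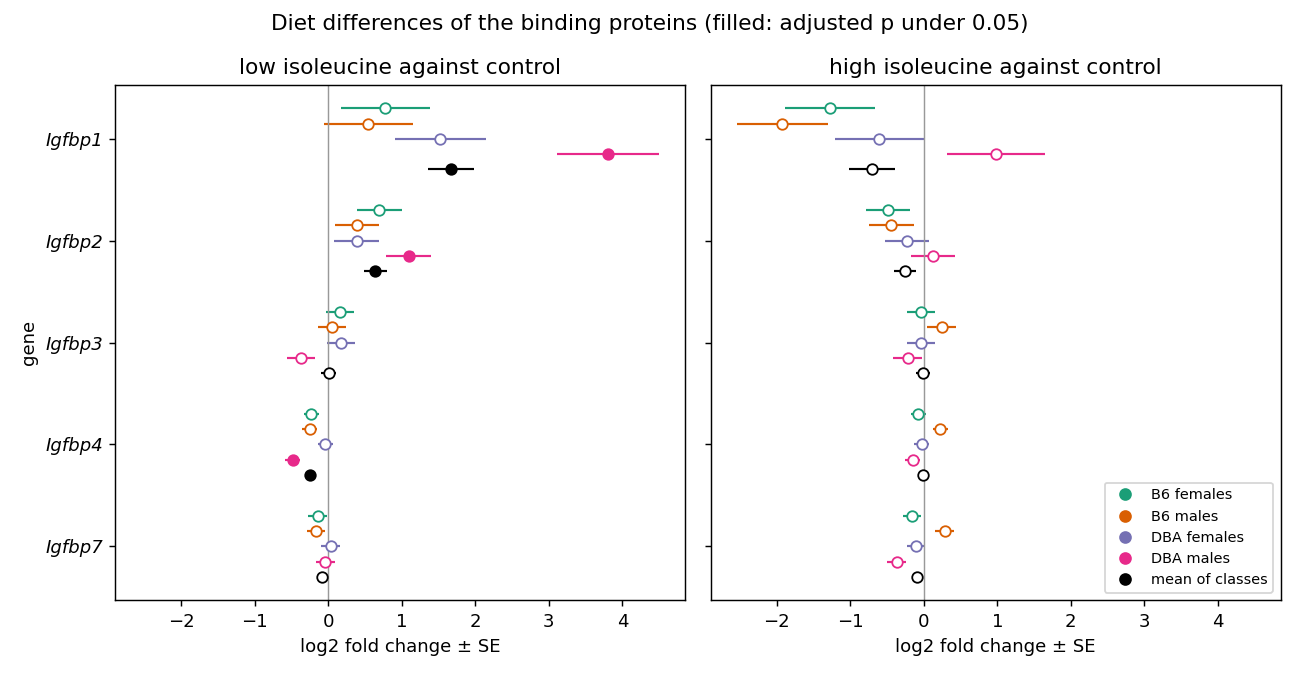
Log2 fold change of each member against control (x axis), on low isoleucine (left) and high isoleucine (right), in each class and as the mean of the 4 classes. Bars are 1 SE, filled points have an adjusted p under 0.05; filled points for Igfbp1, Igfbp2 and Igfbp4 appear on low isoleucine in DBA males and in the mean, and none appear on high isoleucine.

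Whether the low isoleucine response differed between strains or sexes was tested with interaction terms. No member passed either test in edgeR. For Igfbp1 the response was larger in DBA than in B6 by 2.00 ± 0.62 on the log2 scale (adjusted p = 0.082), in a comparison in which 1.39% of genes passed. This value rested on the 2 control libraries that stood apart, being 0.998 ± 0.54 (adjusted p = 0.36) without them, and DESeq2 gave an adjusted p of 0.033 with them. The response of Igfbp1 in males minus that in females was 1.02 ± 0.61 (adjusted p = 0.34), where 6.68% of genes passed, and 1.71 ± 0.56 (adjusted p = 0.048) without B6 male control library 1. Leaving out both control libraries that stood apart did not give a call. Of 10 alternatives only 1 did, library quality weights. In edgeR, with all libraries, the response of DBA males is thus given as a value of that class, since a difference between classes was not shown. At an unadjusted p under 0.05, Igfbp1 alone of the members passed for strain (14.6% of all genes) and Igfbp4 alone for sex (21.3%), and DESeq2 called 1 and 0 members.

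High isoleucine against control, as the mean of the 4 classes, called 0 genes (0%) in edgeR and 5 in DESeq2, with 684 genes at an unadjusted p under 0.05. The only member among those 684 was Igfbp1, with a log2 difference of -0.70 ± 0.31 (95% interval -1.31 to -0.09, adjusted p = 1), and -0.20 ± 0.27 without the 2 control libraries. Igfbp2 differed by -0.26 ± 0.15, Igfbp4 by -0.0050 ± 0.05, Igfbp3 by -0.01 ± 0.10 and Igfbp7 by -0.09 ± 0.06, none of which passed. Within classes no member passed in edgeR, and the share of all genes that did was 4.51% in B6 males, 0.0134% in DBA males, 0.00669% in DBA females and 0% in B6 females. In B6 females no gene passed in edgeR, with 846 at an unadjusted p under 0.05, and 2 passed in DESeq2. At an unadjusted p under 0.05, members numbered 3 in B6 males (21.6% of all genes), 1 in DBA males (8.43%), 1 in B6 females (5.66%) and 0 in DBA females (2.39%). DESeq2 called 1 member and 896 genes in B6 males and 0 members elsewhere. That call was Igfbp1, which ran from 9.02 to 122 CPM (median 16.3) on high isoleucine. Its log2 difference from control was -1.92 ± 0.62 in edgeR (adjusted p = 0.057), with an adjusted p of 0.025 in DESeq2, and -0.59 ± 0.54 (adjusted p = 0.56) in edgeR without the 2 control libraries. The strain difference of the high isoleucine response, with 0.461% of genes called, was 1.79 ± 0.62 for Igfbp1 (adjusted p = 0.18; 0.78 ± 0.54 without the 2 libraries). It called 0 members in edgeR and in DESeq2, with 2 members and 12.6% of all genes at an unadjusted p under 0.05. The sex difference of that response called 0% of genes and 0 members in edgeR, and 5 genes and 0 members in DESeq2; 1003 genes and 0 members had an unadjusted p under 0.05.

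High isoleucine was also set against low isoleucine, a comparison that does not use the control libraries for its means. Here 3 of 5 members passed, where 43.6% of all genes did. Igfbp1 was lower on high isoleucine by a log2 difference of -2.37 ± 0.32 (adjusted p = 1.3e-08) and Igfbp2 by -0.90 ± 0.15 (adjusted p = 2.1e-06), while Igfbp4 was higher by 0.25 ± 0.05 (adjusted p = 5.3e-05). Igfbp3 differed by -0.02 ± 0.10 and Igfbp7 by -0.0065 ± 0.06. The comparisons with low isoleucine share its libraries, so the 2 sets of values are not independent.

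Igfbp1 and Igfbp2 tended to be high in the same libraries. Over the 72 libraries, the Pearson correlation of their log2 CPM was 0.68 after the mean of each class was subtracted and 0.38 after the mean of each group was subtracted. Igfbp1 and Igfbp4 gave -0.52 and -0.08, Igfbp2 and Igfbp4 gave -0.17 and 0.42, and Igfbp3 and Igfbp7 gave 0.48 and 0.52. With group means subtracted, Igfbp2 was thus as close to Igfbp4 as to Igfbp1. These are descriptions over libraries that share a scaling and, in pairs, a title number.

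**Figure D3:**
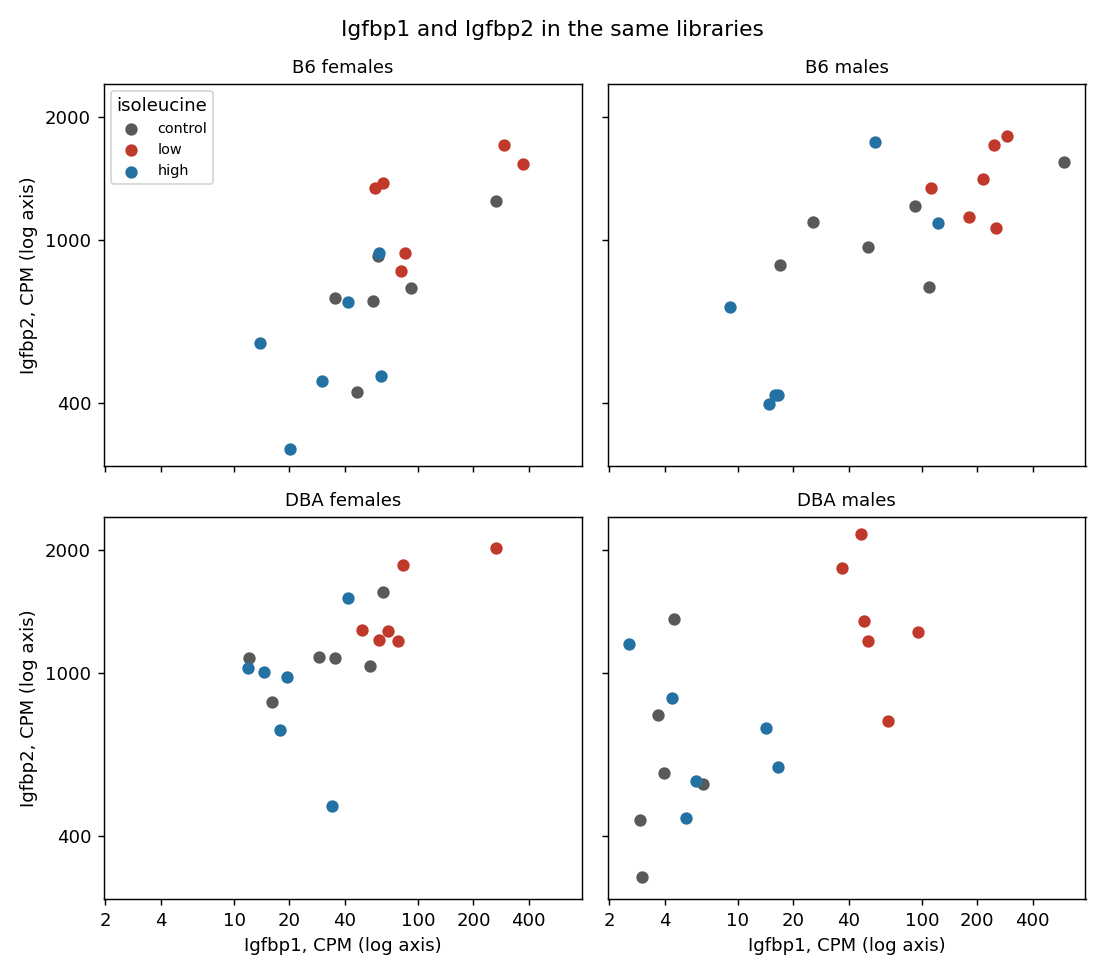
Igfbp1 (x axis) against Igfbp2 (y axis), both in CPM on log axes, with 1 point per library, a panel per class and colour for diet. In B6 males the control library at 591 CPM of Igfbp1 holds 1550 CPM of Igfbp2.

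The genes most like each member were those with the highest Pearson correlation over the 72 libraries after subtraction of class means. For Igfbp1 these were Lepr (0.85), the translation initiation factor gene Eif1a (0.82) and the ribosomal protein gene Rpl5 (0.82). For Igfbp2 they were Psmd9 (0.82), Enho (0.82), which encodes the secreted peptide adropin, and Apoa1 (0.79), which encodes the main protein of high-density lipoprotein. For Igfbp4 they were Lmf1, Rnf167 and Rdh5, each at 0.79. For Igfbp3 they were the collectin gene Colec11 (0.62) and the matrix genes Postn (0.58) and Fbln5 (0.58). For Igfbp7 they were the proteoglycan gene Bgn (0.76), S100a11 (0.73) and Cygb (0.73), a stellate cell gene. With group means subtracted instead, none of the 3 genes stayed among the first 3 for Igfbp1, Igfbp2 or Igfbp4, and 1 stayed for each of Igfbp3 (Colec11) and Igfbp7 (S100a11).

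Males and females were compared over both strains and all diets, and 3 of 5 members passed, with 49.6% of all genes. Igfbp3 was lower in males, by a log2 difference of -0.62 ± 0.08 (adjusted p = 7.3e-10), as were Igfbp1 (-0.72 ± 0.25, adjusted p = 0.014) and Igfbp7 (-0.21 ± 0.05, adjusted p = 0.00053). The call of Igfbp1 was lost when libraries that share a title number were summed (adjusted p = 0.094). Igfbp3 ran from 16.6 to 37.4 CPM in the 36 female libraries and from 9.07 to 33.0 in the 36 male libraries, with overlap. Igfbp2 (-0.02 ± 0.12) and Igfbp4 (0.07 ± 0.04) did not pass. Igfbp1, Igfbp2 and Igfbp3 showed a different sex difference in the 2 strains, in an interaction test that 22.3% of genes passed. Igfbp1 in males minus females was 0.38 ± 0.35 in B6 and -1.81 ± 0.37 in DBA, a difference of -2.19 ± 0.50 (adjusted p = 0.0011). That difference ran from -2.25 to -1.49 over 10 alternatives, which include leaving out the 2 control libraries that stood apart, and was called in all 10. The values within each strain were not fitted without those 2 libraries. Igfbp2 was 0.35 ± 0.17 in B6 and -0.40 ± 0.17 in DBA, a difference of -0.75 ± 0.25 (adjusted p = 0.022; 0.053 with the title number as a block and 0.074 with such libraries summed). Igfbp3 was -0.42 ± 0.11 in B6 and -0.83 ± 0.11 in DBA, a difference of -0.41 ± 0.16 (adjusted p = 0.048). The call of Igfbp3 was lost in 6 of 10 alternatives and on leaving out any of 43 of the 72 libraries, the highest adjusted p being 0.091, without B6 male control library 1.

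Between strains, 4 of 5 members passed, with 65.6% of all genes. Igfbp1 was lower in DBA by a log2 difference of -2.02 ± 0.26 (adjusted p = 5.2e-10), to 0.247 of its level in B6. By sex this difference was -0.92 ± 0.35 in females and -3.11 ± 0.38 in males. Over the 10 alternatives, which include leaving out the 2 control libraries that stood apart, the difference over both sexes ran from -2.05 to -1.55. It was called in all 10, and the values by sex were not fitted without those 2 libraries. Igfbp7 was lower in DBA by -0.35 ± 0.05 (adjusted p = 2.3e-08) and Igfbp3 by -0.28 ± 0.08 (adjusted p = 0.0012). Igfbp4 was higher in DBA by 0.22 ± 0.04 (adjusted p = 3.9e-06), and Igfbp2 differed by 0.11 ± 0.12 without passing.

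Markers of cell types also differed by sex, strain and diet, and their counts stand beside the shares of all genes called. By sex, where that share was 49.6%, 13 of 14 markers of sinusoidal endothelium, which lines the liver capillaries, were lower in males, as were 9 of 14 stellate cell and fibroblast markers (64.3% called). Of 15 macrophage markers 12 were lower and 1 higher, of 8 lymphocyte markers 7 lower and 1 higher, of 9 tested hepatocyte markers 5 lower and 3 higher, and of 6 tested cholangiocyte markers 0 lower and 2 higher. By strain, where the share was 65.6%, 9 endothelial markers were lower and 1 higher in DBA and 9 stellate markers lower and 1 higher (71.4% called for each list). Further, 13 macrophage markers were lower and 0 higher, 6 lymphocyte markers lower and 1 higher, 5 cholangiocyte markers lower and 0 higher, and 3 hepatocyte markers lower and 5 higher. The endothelial sum ran from 266 to 506 CPM (median 399) in female and from 197 to 459 (median 311) in male libraries, and the stellate sum from 306 to 568 (median 411) and from 117 to 583 (median 339). By strain the stellate sum ran from 230 to 583 CPM (median 415) in B6 and from 117 to 448 (median 340) in DBA, and the macrophage sum from 108 to 1150 (median 376) and from 126 to 441 (median 266). On low isoleucine, in the mean of the 4 classes with a share of 37.8%, 10 endothelial markers rose and none fell, and 12 macrophage markers fell and none rose. In the same mean, 3 stellate markers and 1 lymphocyte marker fell, 1 of 6 cholangiocyte markers rose and 1 fell, and 4 of 9 tested hepatocyte markers rose. Within classes, 10 macrophage markers fell in B6 females and 5 in B6 males, and 0 passed in DBA females or DBA males. No macrophage marker passed the strain difference of the response. In DBA males, where 17.7% of all genes passed, 3 endothelial markers rose, 3 stellate markers rose and 1 fell, and 1 hepatocyte and 1 lymphocyte marker fell. The part of these markers in the values of Igfbp3 and Igfbp7, or of the other members, was not tested.

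Of the 24 other genes of the IGF axis that were listed, 19 were tested, and on low isoleucine 7 rose and 3 fell (52.6%, against 37.8% of all genes), with a median log2 difference of 0.06 against -0.0035 over all genes. Among ligands and their carriers, Igfals fell by 0.68 ± 0.11, in log2 units (adjusted p = 1.1e-06), and 24 of 24 libraries were under the mean of their controls. The mRNA of its partner Igf1 differed by 0.0074 ± 0.08 (adjusted p = 0.96), a mean over classes that went both ways. From control to low isoleucine, mean Igf1 went from 585 to 458 CPM in B6 males and from 371 to 360 in B6 females. It went from 686 to 793 CPM in DBA females and from 648 to 755 in DBA males. In the strain difference of the response, 0 of the 19 genes passed in edgeR. Igf2, scarce at 0.116 CPM per kilobase, rose by 0.67 ± 0.18 (adjusted p = 0.0019). Among receptors, the growth hormone receptor gene Ghr fell by 0.45 ± 0.06 (adjusted p = 1.5e-08) and Igf2r, the clearance receptor of IGF2, fell by 0.32 ± 0.08 (adjusted p = 0.00074). Igf1r, scarce in hepatocytes, rose by 0.47 ± 0.09 (adjusted p = 4.2e-05), with 24 of 24 libraries above the mean of their controls. Stat5b, a mediator of growth hormone signals, rose by 0.17 ± 0.05 (adjusted p = 0.0069). The remaining binding proteins Igfbp5 (-0.08 ± 0.17) and Igfbp6 (0.20 ± 0.20) did not pass. On high isoleucine, 0 of the 19 passed in the mean comparison in edgeR.

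**Figure D4:**
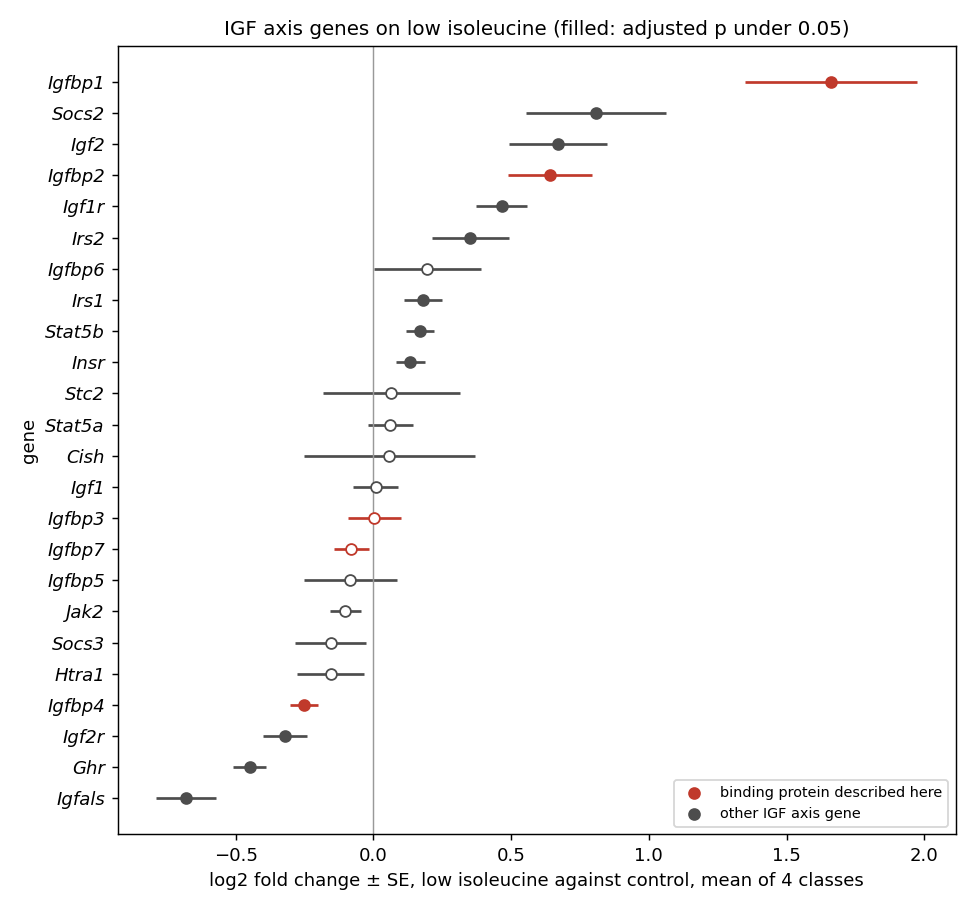
Log2 fold change on low isoleucine, mean of the 4 classes (x axis), for the 5 members (red) and the 19 other IGF axis genes tested (grey). Bars are 1 SE and filled points have an adjusted p under 0.05; Igfbp1 is at 1.66 and Igfals at -0.68.

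Several genes of the axis also differed by sex and strain. Igf1 was higher in males (0.23 ± 0.07, adjusted p = 0.0034) and in DBA (0.67 ± 0.07, adjusted p = 4.7e-14), and Ghr was higher in males by 0.31 ± 0.05 and in DBA by 0.47 ± 0.05. Igfbp5 was lower in males by -0.53 ± 0.14 (adjusted p = 0.00096) and in DBA by -0.35 ± 0.14 (adjusted p = 0.021). In all, 4 of the 19 genes were higher and 7 lower in males (57.9% called, against 49.6% of all genes), and 9 were higher and 6 lower in DBA (78.9% against 65.6%).

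A further 4 lists hold genes of pathways known to act on binding protein genes. Of 14 genes that fasting or insulin and FOXO1 control, 7 rose and 2 fell on low isoleucine (64.3% called, against 37.8% of all genes; median 0.25). Pdk4, which spares glucose by inhibiting pyruvate dehydrogenase, rose by 1.59 ± 0.22, the coactivator gene Ppargc1a by 0.72 ± 0.15, the lipase inhibitor gene Angptl4 by 0.62 ± 0.09, the glucose-6-phosphatase gene G6pc by 0.53 ± 0.13 and Foxo1 by 0.30 ± 0.08, and Srebf1, a regulator of fat synthesis that insulin induces, fell by 0.57 ± 0.14. Of 12 glucocorticoid-induced genes 7 rose and none fell (58.3%; median 0.55). These included the cell cycle inhibitor gene Cdkn1a (2.09 ± 0.30), Zbtb16 (1.74 ± 0.30), Fkbp5 (0.91 ± 0.13), the tyrosine aminotransferase gene Tat (0.59 ± 0.14), Sgk1 (0.58 ± 0.16) and Tsc22d3 (0.52 ± 0.14). Of 14 tested genes of the amino acid response through ATF4, 3 rose (Asns, asparagine synthetase, by 1.29 ± 0.38, Vldlr by 0.73 ± 0.21 and Atf4 by 0.25 ± 0.07) and Gdf15 fell by 0.65 ± 0.26 (28.6%, below the share of all genes; median 0.03). Of 9 p53 targets, Cdkn1a and Trp53inp1 (0.57 ± 0.11) rose and Ccng1 fell by 0.40 ± 0.07 (33.3%, below the share of all genes; median -0.16). All genes just named had adjusted p-values of 0.046 or less in edgeR, Cdkn1a stands in 2 of these lists, and no list was tested as a set. These values are for the mean of the 4 classes. In DBA males, where 17.7% of all genes passed, 4 fasting genes rose and 3 fell (50% called, median 0.04). In that class 2 glucocorticoid-induced genes rose and 0 fell (16.7%, median 0.12). There 3 ATF4 genes rose and 0 fell (21.4%), and 0 p53 targets rose and 2 fell (22.2%).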

How the data were processed

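The authors made expected counts per Ensembl gene on GRCm38.p5, per the labels' protocols; the submitters' processing notes list R 3.4.3 with edgeR and limma, and the aligner is not given in the sources used here. The labels name both a polyA-enriched stranded preparation and a stranded total RNA guide. Of the nonzero deposited expected counts 9.56% were not whole. The table lists 50308 genes, and 1 incomplete line was left out. The authors' tables of fold changes were not used, because their group codes are not explained.

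Expected counts were rounded, filtered with filterByExpr, scaled by TMM (factors 0.84 to 1.14) and fitted with edgeR 4.0.16 in R 4.3.3, with a mean per group over 72 libraries. The 18 contrasts were tested with the robust quasi-likelihood test, checked on simulated data. Depth is ample: the lowest count of a member in a library was 62. CPM values use TMM-scaled library sizes, and levels between genes are per kilobase of exon union in GENCODE. Titles put libraries in 36 pairs sharing a number, whose meaning is not given; the correlation within pairs was 0.24 over all genes and 0.52 for Igfbp1. Alternatives were DESeq2 1.42.0, other scalings and filters, limma 3.58.1 with that number as a block, quality weights, and leaving out each library. Members and lists were chosen with earlier results of these data known. The text names the 5 members, 7 IGF axis genes, up to 6 genes of each list past the threshold on low isoleucine, and the 3 genes most like each member.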

Additional observations from a re-analysis of the deposited data

Results flagged for a closer look

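In groups of 6 libraries, a library was looked at again when its gap to the nearest other library made up more of the range of the group than Dixon's 95% critical value allows. Chance flags about 1 in 20 groups, and 60 combinations of member and group were examined. For Igfbp1 this picked out B6 female control library 4 at 266 CPM (next 91.1), B6 male control library 1 at 591 CPM (next 110) and DBA female low isoleucine library 6 at 267 CPM (next 82.9). For Igfbp2 it was DBA female control library 1 at 1580 CPM (next 1100). For Igfbp3 it was B6 male control library 1 at 33.0 CPM (next 18.5), DBA female high isoleucine library 3 at 37.4 CPM (next 24.4) and DBA male high isoleucine library 6 at 20.8 CPM (next 13.1). Each was the highest library of its group, and B6 male control library 1 appears for 2 members.

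The difference between males and females, tested between the strains with edgeR, passed the threshold for 3 members, as it did for 22.3% of all genes. In DBA minus B6, it was -2.19 for Igfbp1, -0.75 for Igfbp2 and -0.41 for Igfbp3 on the log2 scale. The call of Igfbp2 was lost with the title number as a block (adjusted p = 0.053) and with pairs summed (0.074), and that of Igfbp3 in 6 of 10 alternatives, so that of these 3 calls that of Igfbp1 was kept in all 10.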

How the results depend on the processing

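The calls of Igfbp1, Igfbp2 and Igfbp4 on low isoleucine in the mean comparison held in all 10 alternatives and in all 48 fits without 1 library. Their log2 differences without 1 library ran from 1.52 to 2.00, 0.60 to 0.725 and -0.275 to -0.239. That of Igfbp3 ran from -0.0235 to 0.069 and changed sign, without a call, and so did the sex difference of Igfbp2 (-0.0888 to 0.00804). On low isoleucine, where the main count was 0, library quality weights called 2 members in B6 males, 2 in B6 females (4630 genes called) and 1 in DBA females, and 1 for males minus females. Leaving out both control libraries that stood apart, a choice made after seeing the data, called 1, 3 and 1 in those classes, with 1038, 3778 and 1893 genes called. DESeq2 called 1 member on high isoleucine in B6 males and 1 in the strain difference of the low isoleucine response. The sex difference between strains kept 1 call of 3 with libraries sharing a title number summed and 1 with that number as a block. Leaving out 1 library gave 0 to 2 member calls on low isoleucine in B6 females, 0 to 1 in B6 males, 0 to 1 on high isoleucine in B6 males, and 0 to 1 for each interaction on low isoleucine; the libraries were B6 female control 4, B6 male control 1, 5 and 6 and B6 male high 2. The title letter as a replicate block, RLE size factors, unrounded counts and fits of a single class changed no member call. On low isoleucine, summed pairs called 1626 genes in B6 females (main 3115), 669 in DBA females (1760), 213 in B6 males (748) and 1290 in DBA males (2644), and the title-number block called 1852, 827, 238 and 1649. In B6 males no filter gave 469, that class alone 335 and quality weights 1715 genes, and in DBA females quality weights gave 2812. The causes were not tested. Precision was limited by spread between libraries rather than by depth for Igfbp1.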

Other observations

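Among the 5 members, the control and high isoleucine libraries of DBA males held 2.57 to 16.5 CPM of Igfbp1, while those of the other 3 classes held 9.02 to 591 CPM. Igfbp7 on high isoleucine lay below its controls in DBA males (log2 difference -0.37 ± 0.13, unadjusted p = 0.0052, adjusted p = 0.39) and above them in B6 males (0.28 ± 0.13, unadjusted p = 0.028, adjusted p = 0.17), and neither passed in edgeR.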
